A study of Drosophila melanogaster with 3 samples.

Results

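The 9 imaginal disc selector genes were examined for Hr4 binding in the fruit fly Drosophila melanogaster at the white prepupal stage. The genes were vg, ap, nub, Dll, dac, hth, exd, en and ey, and they are 9 of the 13945 protein-coding genes on the 6 chromosome arms. A binding site was counted for a gene when its summit lay inside the annotated gene span or within 5 kb of either end. By this rule 26 of the 8687 reproducible Hr4 summits on the arms belonged to the 9 genes. The data are ChIP-seq peak lists from 3 replicates, which form 1 group: white prepupae of mixed sex carrying Hr4 fused to GFP at its C-terminal end. The labelled age of 48 days does not match this stage, and its unit is in doubt. Chromatin of whole animals was sheared to fragments of 200 to 800 bp and precipitated with an antibody against GFP, so discs were not separated from other tissues. Because no second condition was measured, no test between groups was made, and all shares are descriptions set beside the same share over all genes or all summits.

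Imaginal discs are the sheets of larval epithelium that form the adult wings, legs, antennae and eyes, and at the white prepupal stage they begin to turn out into appendages. Selector genes encode transcription regulators that give a disc, a compartment or a stretch along the limb axis its identity, and many are controlled by enhancers spread over long introns and flanking DNA. Hr4 is an orphan nuclear receptor of the ecdysone cascade, best known for lowering the activity of early ecdysone response genes in prepupae. Many nuclear receptors recognise the core AGGTCA.

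The sites that carry the results lay in introns of hth, nub and dac and at the start site of ey. They are printed below in build dm6 from the RefSeq Release 6 genome, as the + strand read 5′ to 3′. Each of the first 5 lines is the 101 bp window centred on a summit, and the last is the 101 bp directly before the ey start site, which the ey summit adjoins. Capitals mark the motif named, which reads as TGACCT for AGGTCA and as GGAATG for CATTCC on this strand. Where no motif is named, capitals mark the 11 bases at the summit. The lines show, in order, the hth window that alone among the 26 held AGGTCA, the strongest hth summit and the third hth site by signal. The nub site inside the gene, the stronger of the dac sites and the proximal ey promoter follow.
hth summit with AGGTCA, chr3R:10634011-10634111, + strand: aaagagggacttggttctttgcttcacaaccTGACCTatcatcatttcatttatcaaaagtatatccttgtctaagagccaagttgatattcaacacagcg
hth strongest summit, chr3R:10517970-10518070, + strand: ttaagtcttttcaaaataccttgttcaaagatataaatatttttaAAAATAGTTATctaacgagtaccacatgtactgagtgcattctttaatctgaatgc
hth summit with CATTCC, chr3R:10628348-10628448, + strand: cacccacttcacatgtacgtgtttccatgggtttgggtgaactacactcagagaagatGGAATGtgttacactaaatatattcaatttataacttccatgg
nub intronic summit with TAATTA, chr2L:12604955-12605055, + strand: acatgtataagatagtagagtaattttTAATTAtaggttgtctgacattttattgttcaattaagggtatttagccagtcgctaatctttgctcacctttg
dac stronger summit, chr2L:16476754-16476854, + strand: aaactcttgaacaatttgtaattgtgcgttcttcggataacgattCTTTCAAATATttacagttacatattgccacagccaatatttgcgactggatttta
ey bases before the start site with GAGAG, chr4:697588-697688, + strand: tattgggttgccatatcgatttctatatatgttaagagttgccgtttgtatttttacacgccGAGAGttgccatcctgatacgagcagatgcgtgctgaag

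Of the 9 genes, 7 held at least 1 summit, a share of 77.8% with a 95% Wilson interval of 45.3% to 93.7%, against 51.2% of all protein-coding genes. The interval covers counting error only. The 9 regions were longer than most, with a median of 30.8 kb against 12.2 kb for all protein-coding genes, so the counts were also read within classes of region length. Both members under 20 kb, exd and en, were without a summit, in a class where 47% of genes had one. All 5 members of 20 to 50 kb (vg, ap, Dll, dac and ey) had a summit, against 75.2% of that class, and both members of 50 kb and over (nub and hth) had one, against 80.3%. The median number of summits was 2 per member and 1 per protein-coding gene. Per length, the 9 regions together held 0.0701 summits per kb, against 0.0730 over all protein-coding gene regions and 0.0649 over the whole arms. By this measure the selector genes were close to both gene regions in general and the whole arms, and 26 summits are too few to order them. Most of their sites belonged to a single gene: hth held 16 of the 26 (61.5%) in 38.3% of the total length. Without hth, the other 8 regions held 10 summits, or 0.0437 per kb.

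**Figure D1:**
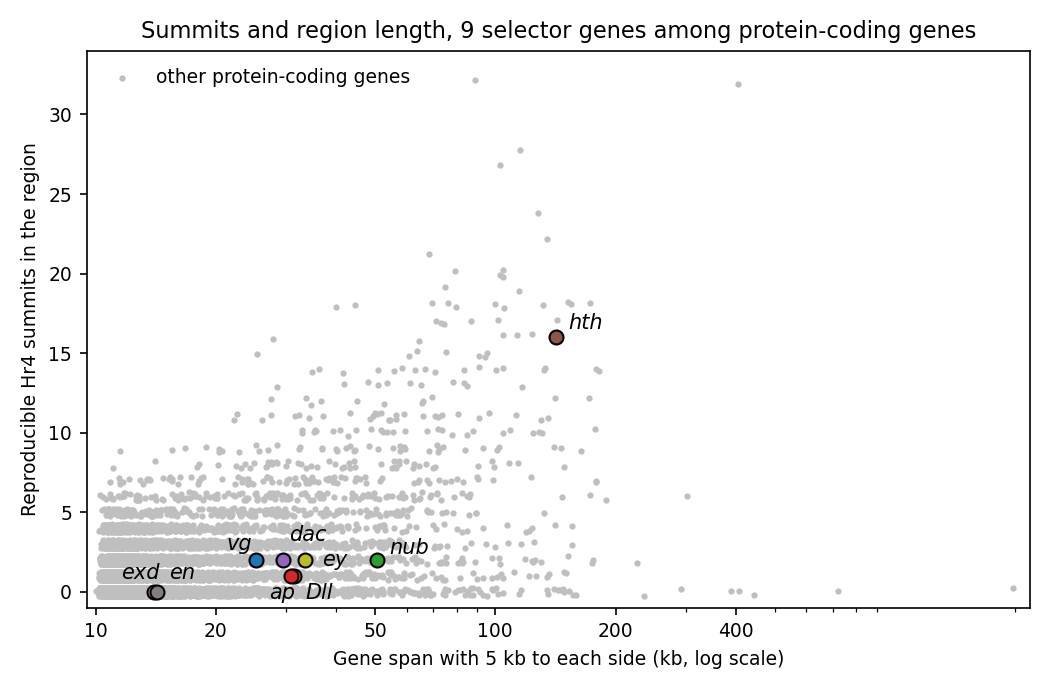
Number of reproducible Hr4 summits (vertical axis) against the length of the gene span with 5 kb to each side in kb (horizontal axis, log scale), for the 9 selector genes (large coloured points) and all other protein-coding genes (small grey points, spread slightly in the vertical direction so that they can be seen). hth, with 16 summits, stands apart from the other 8 members, which held between 0 and 2.

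Of the 26 summits, 25 were found within 250 bp in the relaxed lists of all 3 replicates (96.2%, Wilson interval 81.1% to 99.3%), against 90.5% of all reproducible summits. The exception was the single site near ap, which was not found in replicate 1. The share of 90.5% includes summits on the X, where replicate 1 held 82.5% of them and no member summit lay. Among all reproducible summits in introns away from any start site, where 20 of the 26 lay, it was 93.1%. The member sites were mostly weak. Their median signal value, the authors' measure of peak height in the pooled list, was 119, against 177 over all reproducible summits. In rank, the median member summit stood at the 24.5 percentile of the reproducible list, where 100 is the strongest. To see whether the replicates shared this, the signal of each summit in a replicate was expressed as its percentile among all reproducible summits found there. Replicates 1, 2 and 3 gave member medians of 28.9, 28.8 and 26.6 (28.1 ± 1.31, SD, n = 3), where the median over all summits is the middle of the scale by construction. The member medians of the 3 replicates were thus close to each other. The list was called from the pooled reads of these replicates, so their medians are not independent of the low rank in it. Only 6 of 26 (23.1%, Wilson interval 11.0% to 42.1%) were in the stronger 50% of the list, and 13 were in the weakest 25%. Leaving out hth gave a median of 26.8 in the reproducible list, so the low rank was not set by that gene alone. Single sites were less even than the median: the SD of a site's percentile over the 3 replicates ranged from 0.663 to 25.6, with a median of 10.3, against 8.45 over all summits.

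**Figure D2:**
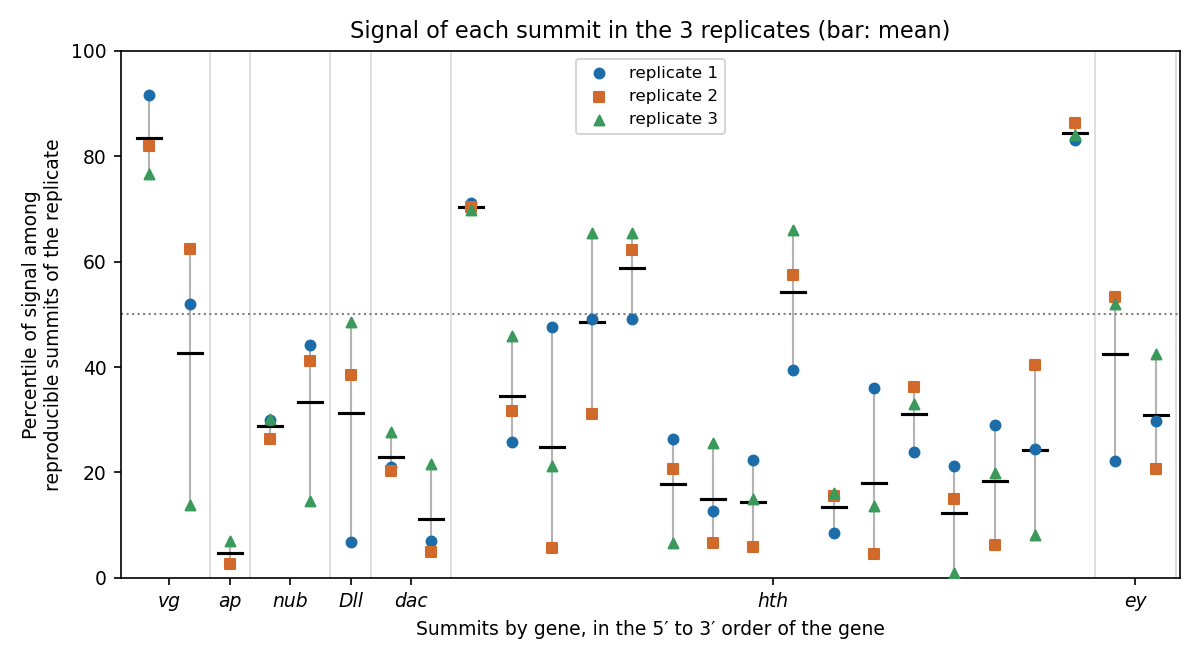
Percentile of the signal in each of the 3 replicates (vertical axis, 100 is the strongest reproducible summit found in that replicate) for the 26 member summits, grouped by gene and placed in the 5′ to 3′ order of each gene. Black bars are means, and the dotted line is the middle of the scale. Few sites stand above it in all replicates. The strongest are a vg site at 91.5, 81.9 and 76.7 and an hth site at 83.0, 86.3 and 84.0 in replicates 1, 2 and 3.

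By position, 20 of the 26 summits lay in introns away from any start site (76.9%, Wilson interval 57.9% to 89.0%), against 54.4% of all reproducible summits. All 16 hth sites were of this kind, while 4 of the other 10 sites were. The interval treats these sites as separate draws, although 16 are of 1 gene. The counting rule of gene span and 5 kb itself favours introns over intergenic sequence, so the intron shares are not like for like. Intergenic sequence held 1 of the 26 (3.85%), against 21.8% of all reproducible summits. Within 250 bp of a start site of any gene lay 4 of 26 (15.4%), against 19.9% of all summits. The 9 genes have 20 annotated start sites. A summit lay within 250 bp of the single start site of Dll, and another was 3 bp from the first of the 3 of ey. So 2 of 9 members (22.2%) had a summit within 250 bp of an own start site, against 13.4% of all protein-coding genes. By region length the share over protein-coding genes was 12.3% under 20 kb, 19.1% of 20 to 50 kb and 23.9% of 50 kb and over. Dll and ey are 2 of the 5 members of 20 to 50 kb, against the 19.1% of that class. With 5 members, the count is too small to say whether they were above genes of their length.

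The wing selectors are vg, which encodes the cofactor that gives the DNA-binding protein Scalloped its wing targets, ap, a LIM homeodomain gene of the dorsal compartment, and nub, a POU domain gene of the wing blade and hinge. None of the 3 had a summit at an own start site. The vg gene (chromosome 2R, 12884201 to 12899385, + strand) had 2 summits in its region, at 12880040 and 12880245, and neither was inside the gene. They lay 205 bp apart and upstream of vg, within the span of AspRS, the gene of aspartyl-tRNA synthetase, and 190 and 15 bp from a start site of Nmda1, which encodes an NMDA receptor subunit. The first was the strongest of all 26 member sites, with a signal value of 428.4 and rank 1243 of the reproducible list, and stood at percentiles 91.5, 81.9 and 76.7 in replicates 1, 2 and 3 (83.4 ± 7.53, SD, n = 3). The second ranked 8227 and scattered widely, at 51.9, 62.3 and 13.7 (42.7 ± 25.6, SD, n = 3). Both vg sites are thus sites at the Nmda1 promoter that the 5 kb margin assigned to vg.

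The ap gene (2R, 5706202 to 5727525, - strand) had 1 site, at 5701700, which was 4502 bp past its 3′ end and 412 bp from a start site of vlc. It had a signal value of 89.8 and rank 8519, close to the lowest of the list. It was not found in replicate 1 and stood at percentiles 2.62 and 6.98 in replicates 2 and 3. It was the least reproducible of the 26.

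The nub gene (2L, 12587625 to 12628135, + strand) had a site inside its span at 12605005, whose window held TAATTA and is printed above. It lay in the second intron of the longest of the 3 isoforms and 13340 bp upstream of the nearest start site of the other two. It ranked 6039, with percentiles of 30.0, 26.4 and 30.2 in replicates 1, 2 and 3 (28.9 ± 2.13, SD, n = 3). A second site, at 12628794, was 659 bp past the end of nub in an intron of Ref2, a gene on the opposite strand. It ranked 5548, with percentiles of 44.2, 41.1 and 14.5 (33.3 ± 16.3, SD, n = 3). The intronic site was weak but even across the replicates, while the outer one was lower in replicate 3 than in the other two.

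Along the limb axis, Dll encodes a homeodomain protein needed for distal leg and antenna, dac a nuclear protein of the intermediate leg, and hth and exd a pair of homeodomain partners of the proximal limb, in which Hth brings Exd into the nucleus. Dll (2R, 24814822 to 24835667, + strand) had 1 site, at 24814711, which was 111 bp upstream of its only annotated start site. It ranked 5939 and stood at percentiles 6.80, 38.5 and 48.5 in replicates 1, 2 and 3 (31.3 ± 21.8, SD, n = 3), so replicate 1 placed it far below the others. Its 101 bp window had a GC content of 70.3%, the highest of all 8687 reproducible windows, of which 25 reached 60%. All other member windows lay below 60%.

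The dac gene (2L, 16466512 to 16485998, - strand) had 2 sites, at 16469973 and 16476804, inside introns of all 6 isoforms and 16025 and 9194 bp from its start site. The site at 16476804, printed above, ranked 6856 and stood at 21.0, 20.3 and 27.7 in replicates 1, 2 and 3 (23.0 ± 4.08, SD, n = 3). The other ranked 8363 and stood at 6.90, 4.85 and 21.7 (11.1 ± 9.16, SD, n = 3). Both were below the middle of the list in every replicate.

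The hth gene (3R, 10507561 to 10639568, - strand) had 16 sites, all inside the gene, in introns, and found in all 3 replicates. Its region of 142 kb held 0.113 summits per kb, against a median of 0.0557 in the class of 50 kb and over. In that class 33 of 461 genes (7.16%) held as many summits, 114 of 461 (24.7%) were at least as dense, and among all protein-coding genes 36 held 16 or more. So hth was high in number, and less so in density. The genes most like it, by the same number of summits and then by region length, were Eip75B with 124 kb, RhoGEF64C with 113 kb and Eip63E with 105 kb. Eip75B encodes a nuclear receptor induced by ecdysone, RhoGEF64C a guanine nucleotide exchange factor, and Eip63E a cyclin-dependent kinase.

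The strongest hth site was at 10518020, near the 3′ end and 96256 bp from the nearer hth start site, so that the nearest protein-coding start site was that of Cyp12e1. It lay in intron 11 of the 2 long isoforms, with a signal value of 426.8 and rank 1252, and stood at percentiles 83.0, 86.3 and 84.0 in replicates 1, 2 and 3 (84.4 ± 1.68, SD, n = 3). The second, at 10634061, was the AGGTCA site, 5507 bp inside the upstream start site, with a signal value of 275.4 and rank 2523. It stood at 71.1, 70.4 and 69.8 (70.4 ± 0.663, SD, n = 3), the smallest spread of any member site. These 2 sites were high in each replicate. They were picked by signal in the pooled reads of the same replicates, so this is not independent of the choice.

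Next by signal among the hth sites was the one at 10628398, with rank 3246 and percentiles of 49.1, 62.2 and 65.3 (58.9 ± 8.64, SD, n = 3), and its window held CATTCC. The fourth, at 10560740, ranked 3834, with percentiles of 39.4, 57.4 and 65.9 (54.2 ± 13.6, SD, n = 3). The other 12 had signal values down to 88.7, at 10537266, which ranked 8609. Beside 10628398 lay another summit at 10628599, 201 bp away, and in replicates 1 and 3 a single entry was within reach of both, so these 2 were separate sites in replicate 2 only. None of the 16 was within 250 bp of an hth start site.

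The annotated isoforms divide hth into 3 stretches. Of the 5, 1 started at 10639568 and 4 at a shared start site 25.3 kb downstream, at 10614276, and 2 of those 4 ran to the far end. Between the start sites, where 1 isoform is annotated, lay 5 summits in 25.3 kb (0.198 per kb). From the shared start site to the end of the shorter isoforms there was 1 in 32.9 kb (0.0304 per kb). The remaining 73.8 kb held 10 (0.135 per kb). The middle stretch was the sparsest, and the single site in it, at 10597818, was 30580 bp from the next site on its 5′ side and 29082 bp from the next on its 3′ side. The same order was seen when each replicate was taken alone. Among the 8693 highest entries of each list, the stretch between the start sites held 4, 4 and 4 in replicates 1, 2 and 3. The middle stretch held 2, 2 and 0, and the last stretch 10, 7 and 7. The pooled list was called from these replicates, so this is not separate support, and the counts are small. The middle stretch was not empty of weaker entries: below the reproducible set, the pooled relaxed list held 10 entries there, 10 between the start sites and 17 in the last stretch. The sparse sequence passed both borders of the middle stretch, which lie 25.3 and 58.2 kb from the upstream start site. The 5 summits before it were all within 11.2 kb of that start site, and the first after it was at 70.8 kb.

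**Figure D3:**
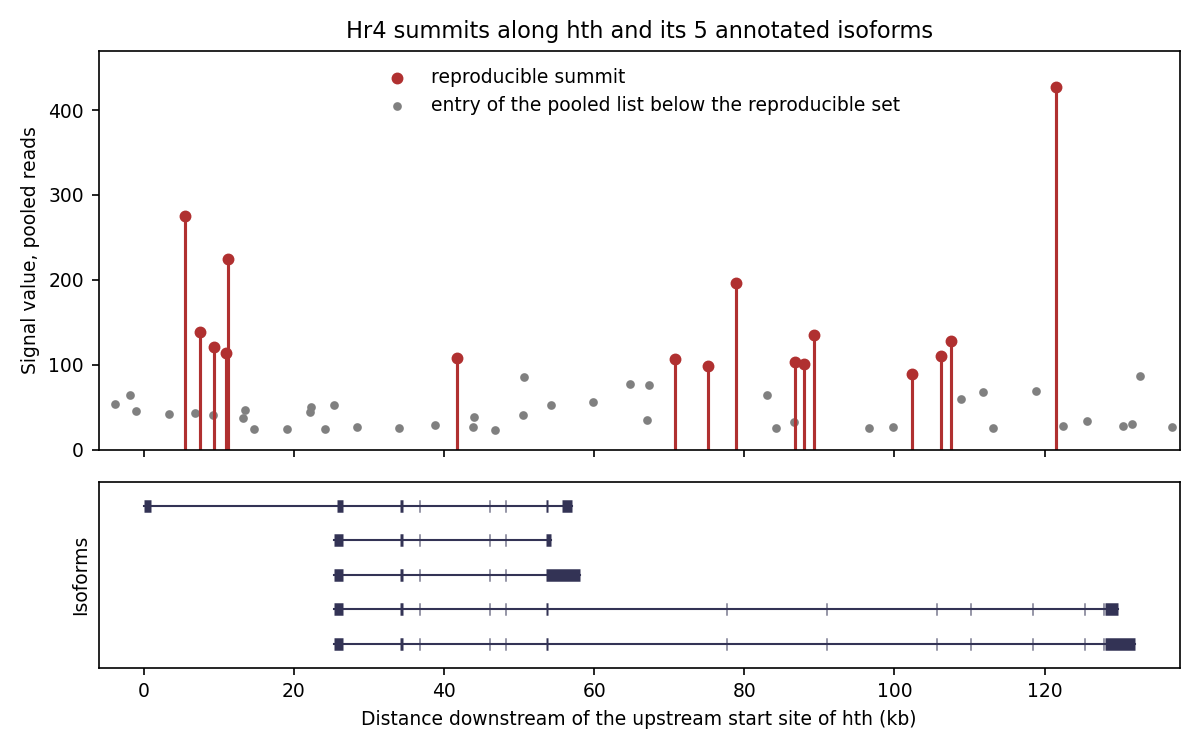
Reproducible Hr4 summits along hth. The horizontal axis is the distance in kb from the upstream start site in the direction of transcription, and the vertical axis is the authors' signal value in the pooled list. Red stems are the 16 reproducible summits, grey points the weaker entries of the pooled list, and the 5 isoforms with their exons are drawn below. Reproducible summits lie near the upstream start site and in the 3′ introns of the 2 long isoforms, with 1 in the stretch between.

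The partner gene exd (X, 15992468 to 15996509, + strand) had no reproducible summit within 5 kb, and the nearest was 57997 bp away. The pooled relaxed list held 5 entries in its region, the best at rank 20424, and none was found in all 3 replicates. Replicates 1, 2 and 3 listed 0, 3 and 7 entries there. Replicate 1 listed fewer entries on the X in general, 3262 against 5753 and 6069 in replicates 2 and 3, and held 82.5% of the reproducible X summits, against 100% and 99.9%. The part of this in the absence of exd entries from replicate 1 was not tested.

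The posterior compartment selector en, a homeodomain gene (2R, 11524006 to 11528210, - strand), also had no summit within 5 kb. The nearest, at 11515921, was 8085 bp past its 3′ end in intergenic sequence, 6226 bp beyond the end of its paralogue inv, and had a signal value of 193.6 and rank 3896. It entered when the margin was 10 kb. In the en region the pooled relaxed list held 4 entries, the best at rank 13565, and none was found in all 3 replicates. Over all 9 regions, 27 of 96 pooled entries below the reproducible threshold (28.1%) were found in all 3 replicates, against 30.5% of all such entries on the arms, and 16 of the 27 were in hth.

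The Pax6 homologue ey, which directs eye development (4, 697689 to 721173, + strand), had 2 sites. The first was at 697692, 3 bp inside the gene from its first start site, ranked 6693 and stood at 29.7, 20.7 and 42.5 in replicates 1, 2 and 3 (31.0 ± 10.9, SD, n = 3). The other, at 695240, was 2449 bp upstream in the 5′ UTR of myo, which encodes the TGF-beta family ligand myoglianin, and 815 bp from the myo start site. It ranked 4313 and stood at 22.2, 53.4 and 51.9 (42.5 ± 17.6, SD, n = 3). Chromosome 4 held 25 reproducible summits in all.

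How many sites a gene received depended on the margin for some genes and not for others. With margins of 0, 1, 5, 10 and 20 kb, hth had 16, 16, 16, 17 and 18 summits, and ey had 1, 1, 2, 2 and 2. For dac the counts were 2, 2, 2, 5 and 13, and of the 11 sites that the wider margins added, 10 lay beyond its 5′ end and 1 beyond its 3′ end. For vg they were 0, 0, 2, 2 and 5. With no margin, 4 of the 9 genes held a summit, and these were nub, dac, hth and ey.

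**Figure D4:**
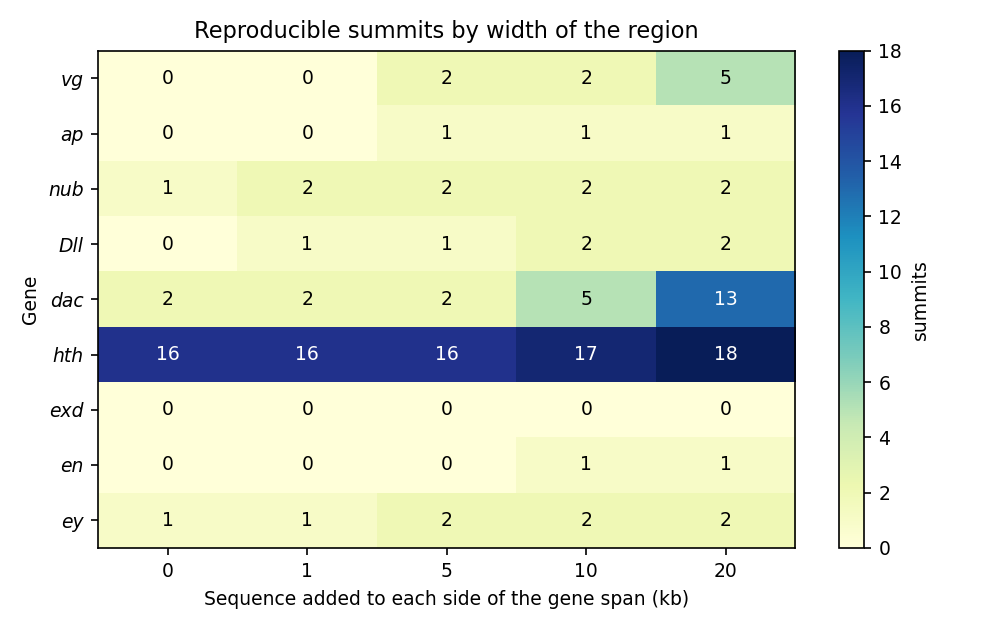
Number of reproducible Hr4 summits, printed in each cell and shown by its colour, for each selector gene (rows) when the margin added to either side of the gene span is 0, 1, 5, 10 or 20 kb (columns). hth is nearly even at 16 to 18, dac reaches 13 at 20 kb, and exd has 0 at every margin.

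Within 50 bp of the summit, 9 short motifs were searched on both strands with exact matches. AGGTCA was held by 1 of 26 windows (3.85%), against 1.8% of all 8687 windows, and the extended forms AAGGTCA and TCAAGGTCA, which contain it, by 0, against 0.679% and 0.0230%. GAGAG, the motif of GAGA factor, was held by 2 windows (7.69%), at ey and in an hth intron, against 8.38%. TATCGATA, known as the DNA replication-related element, was held by the weaker vg site, against 0.668% of all windows, and CATTCC, the core bound by Scalloped, by 1 hth site, against 2.94%. TAATTA, a homeodomain core, was held by the nub site, against 10.8%. CAGGTA and TGACAG, cores bound by Zelda and by Hth-type homeodomains, were held by 0, against 1.75% and 2.35%. With 26 windows the precision is low: a count of 0 has a Wilson upper bound of 12.9%, and a count of 1 an interval of 0.682% to 18.9%. The share over all summits lay within the interval for each motif except TATCGATA, where it was just under the lower bound. That window is 15 bp from a start site of Nmda1. Of all summits within 250 bp of a start site, 2.14% held TATCGATA. Only 4 member summits lay that near to a start site. The interval for 26 windows does not apply to them, and 4 are too few to compare. Mean GC content was 33.6% ± 10.2 (SD, n = 26 windows), against 31.7% ± 7.59 for all.

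**Figure D5:**
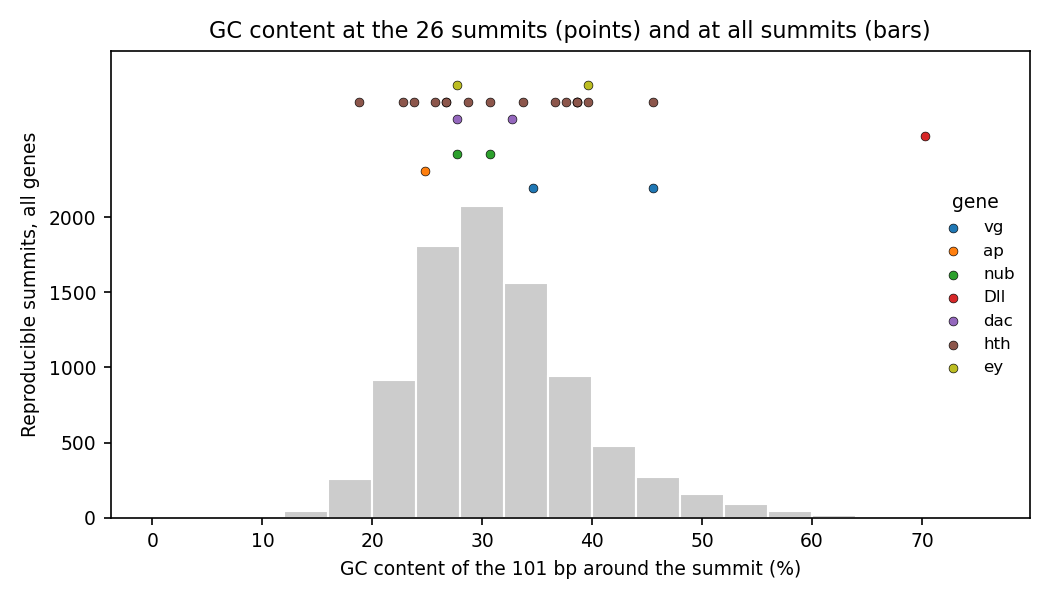
GC content of the 101 bp windows at reproducible summits (horizontal axis, percent) as a histogram over all 8687 windows, with the 26 member windows drawn above it as points coloured by gene, whose height carries no value. Most member points lie where the histogram is high, and the Dll window lies at its right-hand end at 70.3%.

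Beside the 9 genes, 43 other regulators of disc development were listed by disc. A summit lay in the regions of 19 of the 43 (44.2%, Wilson interval 30.4% to 58.9%), against 51.2% of all protein-coding genes. By list they were 7 of 15 wing, vein and notum regulators, 6 of 15 leg and antenna regulators, 5 of 10 eye regulators and 1 of 3 compartment and paralogue partners. The 43 regions were longer than most, with a median of 25.3 kb against 12.2 kb for all protein-coding genes. By region length they were 3 of 15 under 20 kb, against 47% of all genes in that class, 10 of 22 of 20 to 50 kb, against 75.2%, and 6 of 6 of 50 kb and over, against 80.3%. Of the direct partners and paralogues of the 9 genes, inv held 4 summits, while pdm2, the paralogue of nub, toy, the paralogue of ey, sd, the partner of vg, and Chi, the cofactor of ap, held 0. Apart from these partners and paralogues, the highest counts were 17 for ush, 12 for pnt, 7 for bab1 and for knrl, 4 for ct and 3 for pnr, which was taken from a tie at 3 by its strongest signal. A summit lay within 250 bp of an own start site in 2 of the 43, pnt and ct, against 13.4% of all protein-coding genes. Both are in the class of 50 kb and over, where the share was 23.9%, against 19.1% of 20 to 50 kb and 12.3% under 20 kb.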

How the data were processed

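Per the labels and the deposited text files, the authors derived a relaxed list of peaks and background from the alignments of each of the 3 replicates and a control, another from the pooled alignments, and an optimal list of reproducible peaks from these by irreproducible discovery rate analysis. The unit used is the signal value of each peak as deposited by the authors, comparable within a list and not between lists. Read depth is unknown. For the peak caller, the aligner and the threshold, names and settings were not given in the sources used. The 5 lists in build dm6 were used. The 5 in dm3 were not used here. All 8693 reproducible peaks are also the 8693 highest of the pooled list, and each relaxed list holds 30000 entries.

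Gene spans and start sites came from Ensembl release 115 and bases from the RefSeq Release 6 genome. A summit was the peak start plus its summit offset, written 1-based. Places were assigned as within 250 bp of a start site, exon, intron or intergenic, in that order. Region classes were cut at 20 and 50 kb. Intervals are Wilson intervals at 95%. Computation used Python 3.11.15, numpy 2.4.6 and pandas 2.3.3, and region counting and summit matching were first tested on simulated data. The members, the lists of other regulators and the motifs were chosen with earlier results of these data known. The text names the 9 members with their strongest summit and the one nearest to an own start site, genes whose start site is nearest to a summit described, the partners inv, pdm2, toy, sd and Chi, the 6 disc regulators with most summits apart from these partners, and the 3 genes most like hth. Alternatives changed the margin, summit distance, windows, list strength and replicate.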

Additional observations from a re-analysis of the deposited data

How the results depend on the processing

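Over 9 results, 41 alternatives were run, 39 planned and 2 added after seeing the data. Of these, 29 stayed near the reported value and 12 moved. The number of summits in the 9 regions, 26 as reported, was 44 with a 20 kb margin, 6 in the stronger 50% of the list and 10 with hth left out, an alternative chosen after seeing the data. Members with a summit numbered 4 with no margin and 3 in the stronger 50%, against 7 as reported. Summits per kb were 0.0437 without hth, against 0.0701. The median percentile of 24.5 was 28.9, 28.8 and 26.6 when ranked in replicates 1, 2 and 3, 22.1 with no margin and 34.1 with 20 kb. Mean GC content was 35.3% with 100 bp to each side of the summit, against 33.6%. Leaving out a replicate gave 25 to 26 summits found in all remaining replicates. No paired analysis was possible because the replicates form 1 group. The cause of these shifts was not tested. Depth is unknown, so a gene with no summit, such as exd or en, is a gene without a peak that passed the authors' threshold, and weak sites near that threshold, such as the one near ap, depend most on it.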

Other observations

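Upstream of dac, outside its 5 kb margin, lay a dense group of Hr4 sites at Tpr2, a gene named here after its values were seen. Between 5494 and 18926 bp from the 5′ end of dac there were 10 reproducible summits, 9 inside introns of Tpr2 and 1 at 16491492, 48 bp from its start site. All 10 were found in all 3 replicates. The strongest, at 16495383, had a signal value of 819.4 and rank 360, and those at 16500664 and 16492745 ranked 705 and 963, while the sites inside dac ranked 6856 and 8363. The 11 summits that a 20 kb margin adds to dac are these 10 and 1 in an intron of Idgf2 on the other side.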
